A study of Homo sapiens with 4 samples.

Results

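The enzymes that make deoxynucleotides for DNA were followed by RNA-seq in cells with an NME7-directed short hairpin RNA (shNME7) and in cells with a control hairpin (shCtrl). They are 9 of the 58735 genes in the deposited tables, taken by gene symbol from GENCODE release 29: RRM1, RRM2, RRM2B, TYMS, DTYMK, DUT, CMPK1, CTPS1 and TK1. There were 2 libraries from shNME7 cells and 2 from shCtrl cells, all labelled Huh7, a human hepatocellular carcinoma line known to make albumin and alpha-fetoprotein. The labels give no treatment, time point, hairpin sequence or clone, and do not tell whether replicates were grown separately, so the p-values reflect library-to-library spread that may be technical.

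Deoxynucleotides are built by reduction of ribonucleoside diphosphates and, for thymidine, by methylation of deoxyuridylate, with salvage of free nucleosides as a second supply. Kinases then add phosphates in steps, and the last step, from diphosphate to triphosphate, is the reaction of nucleoside diphosphate kinases, the family to which NME7 belongs by sequence. Several of these enzymes are made mainly when cells replicate DNA, and the thymidylate and ribonucleotide reductase steps are targets of anticancer drugs. The comparison asked whether transcripts of other enzymes of the deoxynucleotide pool differ when NME7 is knocked down.

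Of the promoters of these genes, 4 are shown because RRM2, TYMS, TK1 and DUT belong to the replication-linked part of the pathway and so are the members whose transcription could be read together. Each line gives the 250 bases before a RefSeq transcription start on GRCh38.p14, 5′ to 3′ on the gene's own strand, with capitals for CCAAT, the pentamer bound by the factor NF-Y, and for the octamers TTTGGCGC, TTTCCCGC, TTTGCCGC and TTTCGCGC, forms of the element bound by E2F factors, searched on both strands. RRM2 is chr2:10122489-10122738 on the plus strand, TYMS is chr18:657403-657652 on the plus strand, TK1 is chr17:78187053-78187302 on the minus strand and DUT is chr15:48331947-48332196 on the plus strand.
RRM2: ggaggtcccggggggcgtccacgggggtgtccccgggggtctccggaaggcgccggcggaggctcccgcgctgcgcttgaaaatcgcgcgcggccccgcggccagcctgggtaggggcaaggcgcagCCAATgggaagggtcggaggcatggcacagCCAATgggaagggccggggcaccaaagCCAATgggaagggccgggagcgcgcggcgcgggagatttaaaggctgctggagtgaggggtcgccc
TYMS: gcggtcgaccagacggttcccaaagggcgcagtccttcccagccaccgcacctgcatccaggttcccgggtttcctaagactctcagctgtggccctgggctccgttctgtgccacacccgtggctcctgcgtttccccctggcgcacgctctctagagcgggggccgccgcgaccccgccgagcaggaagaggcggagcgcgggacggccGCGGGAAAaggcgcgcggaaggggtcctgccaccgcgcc
TK1: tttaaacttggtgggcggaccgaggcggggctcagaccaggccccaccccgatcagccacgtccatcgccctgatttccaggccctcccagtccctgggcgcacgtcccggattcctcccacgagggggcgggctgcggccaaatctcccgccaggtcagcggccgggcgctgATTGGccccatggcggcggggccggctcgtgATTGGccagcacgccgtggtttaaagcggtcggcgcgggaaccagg
DUT: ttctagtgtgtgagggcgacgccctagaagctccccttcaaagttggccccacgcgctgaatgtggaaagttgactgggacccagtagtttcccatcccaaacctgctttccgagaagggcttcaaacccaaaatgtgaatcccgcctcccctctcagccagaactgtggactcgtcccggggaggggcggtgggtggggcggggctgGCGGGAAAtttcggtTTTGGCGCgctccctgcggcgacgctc

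In the windows shown, RRM2 held 3 CCAAT pentamers, TK1 held 2, TYMS held 1 E2F octamer and DUT held 2. For genes with several listed starts, the window with the most motifs was shown: the other RRM2 window held 1 CCAAT, and the other TK1 window and the other DUT windows held no motif. Of the 14 windows listed for 8 of the 9 genes, 2 held an octamer and 5 held CCAAT, the further carriers of CCAAT being RRM1 and DTYMK. Among all 35116 promoter windows in the table, 2.79% held an octamer and 32.0% held CCAAT. None of the motifs marked in these 4 windows overlapped another.

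The recovered depth was 14877906 to 16991397 fragments per library, and values are FPKM (fragments scaled to exon length and library size). The length counts all annotated exons of a gene, so levels of different genes can be compared only roughly. NME7 stood at 0.835 and 0.626 FPKM in shNME7 1 and 2, against 3.64 and 3.93 FPKM in shCtrl 1 and 2, so the libraries followed their hairpin labels. Its log2 difference was -1.47 (SE 0.17) in limma-trend, where its Benjamini-Hochberg adjusted p was 0.310, and -2.40 in limma-voom on recovered fragments, with an adjusted p of 0.00121. The tissue label was not borne out by markers: 7 hepatocyte markers together held 10 and 9 fragments in shNME7 1 and 2, against 6 and 11 in shCtrl 1 and 2, and ALB, AFP, APOA1 and APOB had 0 or 1 fragment in each library. Of 5 fibroblast markers, the collagen gene COL3A1 stood at 75.1 and 76.6 FPKM in shNME7 and 75.8 and 66.9 FPKM in shCtrl and COL1A1 at 8.44 and 9.05 FPKM in shNME7 and 10.8 and 9.21 FPKM in shCtrl, but COL1A2 had 0 to 2 fragments and DCN 6 to 16 fragments per library, so the list was mixed. Together, 5 leukocyte markers held 0 or 1 fragment per library. All 4 libraries were alike in these 3 lists. Of 4 endothelial markers, CDH5 held 172 and 276 fragments in shNME7 1 and 2, against 165 and 129 in shCtrl 1 and 2. PECAM1 held 106 and 105 fragments in shNME7 and 69 and 77 in shCtrl. VWF had 1 to 4 fragments per library and KDR 0, so this list was mixed too. What cells the libraries came from was not tested.

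None of the 9 genes passed the test. In limma-trend, 0 of 9 were called at an adjusted p under 0.05 and 0 had an unadjusted p under 0.05, while over all 12866 tested genes 0% were called and 859 had an unadjusted p under 0.05. In limma-voom, 0 of 9 were called, against 0.106% of 15112 genes. The mean was higher in shNME7 for 5 genes and lower for 4, beside 6712 and 6154 of the tested genes. The median log2 difference was 0.02, beside 0.01 over all tested genes. The median size of the difference, sign ignored, was 0.08 for the 9 genes and 0.14 for all tested genes. RRM2 was the only one of the 9 whose libraries did not overlap between the groups, both shNME7 libraries lying below both shCtrl libraries. Such a separation was seen in 18.4% of tested genes downward and in 17.8% upward, so 1 of 9 downward and 0 of 9 upward is not above what tested genes show.

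**Figure D1:**
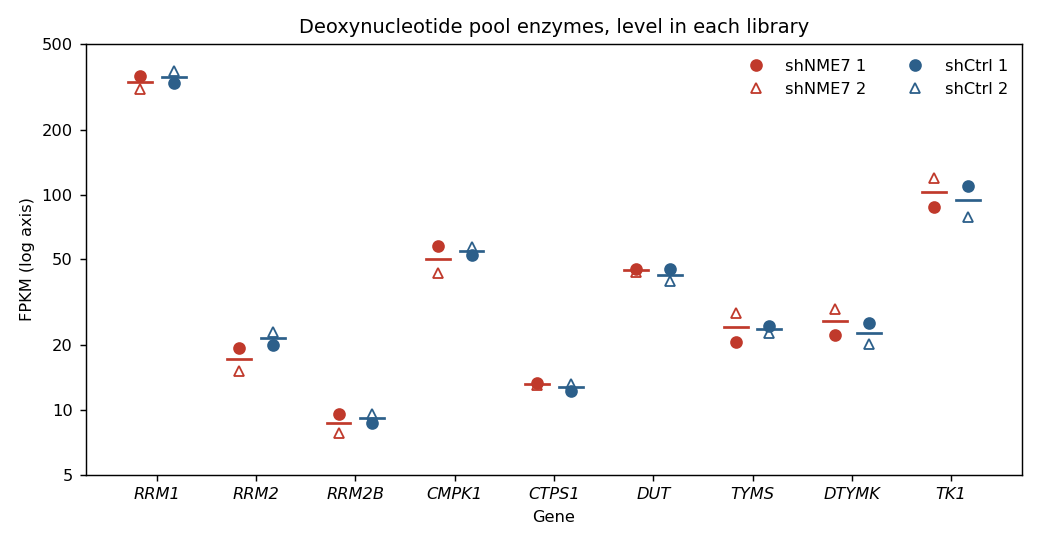
FPKM of the 9 deoxynucleotide pool enzymes in each library on a log axis, shNME7 (red) left of shCtrl (blue), filled circles for replicate 1, open triangles for replicate 2 and a bar for the group mean. RRM1 stands far above the rest at 309 to 374 FPKM, and RRM2 alone has both shNME7 points below both shCtrl points.

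Ribonucleotide reductase turns ribonucleoside diphosphates into their deoxy forms, with RRM1 as the large catalytic subunit and RRM2 as the radical-bearing small subunit made in S phase. RRM1 (ENSG00000167325, chromosome 11, 4094707 to 4138876, plus strand, all positions on GRCh38) had 356 and 309 FPKM in shNME7 1 and 2, against 329 and 374 FPKM in shCtrl 1 and 2. Of the shNME7 values, 1 lay within the shCtrl range and the other below it, and the means of 332 ± 33.6 and 351 ± 31.8 FPKM (SD, n = 2 each) differed by less than the spread. RRM2 (ENSG00000171848, chromosome 2, 10120698 to 10131419, plus strand) stood at 19.5 and 15.1 FPKM in shNME7, against 20.1 and 23.1 FPKM in shCtrl. All 4 values were ordered with shNME7 lowest, but shNME7 1 lay only 0.667 FPKM under shCtrl 1. The RRM2 means were 17.3 ± 3.06 and 21.6 ± 2.09 FPKM (SD, n = 2 each), a log2 difference of -0.31 (SE 0.17; 95% interval -0.72 to 0.10) for which limma-trend gave an unadjusted p of 0.112 and an adjusted p of 0.795. In bulk RNA, fewer cells making a transcript and less of it per cell cannot be told apart. Without shNME7 2 the RRM2 difference was -0.14, and without shNME7 1 it was -0.48.

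RRM2B encodes the small subunit that p53 can induce and that supplies reductase activity outside S phase. RRM2B (ENSG00000048392, chromosome 8, 102204502 to 102239118, minus strand) stood at 9.56 and 7.79 FPKM in shNME7 and at 8.72 and 9.61 FPKM in shCtrl, overlapping groups with a log2 difference of -0.08 (95% interval -0.45 to 0.29). Because FPKM is per length, subunits were set side by side within a library, a comparison chosen after the values were seen. The length counts all annotated exons of a gene, so the size of such a ratio is only approximate. The level of RRM2 relative to RRM1 was 0.0547 and 0.0490 in shNME7 1 and 2, against 0.0613 and 0.0618 in shCtrl 1 and 2. The ratio was lower in both shNME7 libraries, and the exact two-sided permutation test over the 4 libraries gave p = 0.333, the smallest value that 2 against 2 allows. The level of RRM2 relative to RRM2B was 2.04 and 1.94 in shNME7 and 2.31 and 2.40 in shCtrl, again with shNME7 lower in both libraries (exact permutation p = 0.333). The level of RRM2B relative to RRM1 overlapped, at 0.0268 and 0.0252 in shNME7 and 0.0265 and 0.0257 in shCtrl. The ratios of TK1 to TYMS and of DUT to DTYMK, also taken, overlapped too. Both separated ratios have RRM2 as numerator, so they are not independent of its own separation.

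The high level of RRM1 was a property of all 4 libraries. Ranked by mean FPKM over the 12866 tested genes, RRM1 stood at place 69, TK1 at 357, CMPK1 at 769 and DUT at 993, while RRM2 stood at 2613 and RRM2B at 5330. Genes beside RRM1 on chromosome 11 were looked at after these values were seen. RHOG, a small GTPase gene, stood at 179 and 201 FPKM in shNME7 and 217 and 191 FPKM in shCtrl. PGAP2, a gene of lipid anchor remodelling, stood at 77.3 and 75.4 FPKM in shNME7 and 80.7 and 74.3 FPKM in shCtrl. STIM1, the calcium sensor gene that lies between RHOG and RRM1, stood at 6.43 and 9.08 FPKM in shNME7 and 7.58 and 6.71 FPKM in shCtrl, so the neighbours were not uniformly high.

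Thymidylate synthase, encoded by TYMS, methylates deoxyuridylate to thymidylate. TYMS (ENSG00000176890, chromosome 18, 657604 to 673578, plus strand) stood at 20.6 and 28.1 FPKM in shNME7, against 24.6 and 22.8 FPKM in shCtrl. The shNME7 libraries lay on either side of both shCtrl libraries, and the log2 difference was 0.02 (95% interval -0.41 to 0.46). The antisense-strand genes ENOSF1 and TYMSOS overlap TYMS, and since strand is not stated for the counting, reads cannot be assigned between them with certainty. DUT encodes the dUTPase, which keeps uracil out of DNA and yields the substrate of thymidylate synthase. DUT (ENSG00000128951, chromosome 15, 48331011 to 48343373, plus strand) stood at 45.1 and 43.9 FPKM in shNME7, against 44.9 and 39.8 FPKM in shCtrl, a log2 difference of 0.07 (95% interval -0.27 to 0.41). Its 8 pseudogenes held at most 18 fragments in a library, against at least 2359 for DUT.

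TK1 and DTYMK carry out the next steps toward dTTP from the salvage side. TK1 encodes cytosolic thymidine kinase, and TK1 (ENSG00000167900, chromosome 17, 78174075 to 78187233, minus strand) stood at 87.1 and 119 FPKM in shNME7, against 110 and 78.4 FPKM in shCtrl. The spread was wide in both groups and the values interleaved, with means of 103 ± 22.6 and 94.1 ± 22.1 FPKM (SD, n = 2 each) and a log2 difference of 0.13 (95% interval -0.42 to 0.69). DTYMK encodes thymidylate kinase, which makes dTDP for both the new and the salvaged supply. DTYMK (ENSG00000168393, chromosome 2, 241675742 to 241686991, minus strand) stood at 22.4 and 29.5 FPKM in shNME7, against 25.4 and 20.2 FPKM in shCtrl, interleaved in the same way, with a log2 difference of 0.17 (95% interval -0.29 to 0.63), the largest upward difference among the 9 genes.

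CMPK1 encodes the kinase that phosphorylates UMP and CMP, and CTPS1 encodes CTP synthase, which aminates UTP. CMPK1 (ENSG00000162368, chromosome 1, 47333797 to 47378839, plus strand) stood at 57.8 and 43.0 FPKM in shNME7, against 52.4 and 57.2 FPKM in shCtrl, a log2 difference of -0.13 (95% interval -0.57 to 0.30). CTPS1 (ENSG00000171793, chromosome 1, 40979335 to 41012565, plus strand) was the steadiest of the 9 genes, at 13.3 and 13.0 FPKM in shNME7 and 12.3 and 13.2 FPKM in shCtrl, with a log2 difference of 0.04 (95% interval -0.27 to 0.36). On the log2(FPKM + 1) scale the 95% intervals of all 9 genes lay between -0.72 and 0.69, that is between 0.606 and 1.61 of the shCtrl level. Each gene's interval included 0, so with 2 libraries a group none of the 9 differences could be told from 0. The range spans all 9 genes, and the interval of any single gene is narrower. Adjusted p-values of the 9 genes ran from 0.795 to 0.979 in limma-trend and from 0.662 to 0.988 in limma-voom.

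**Figure D2:**
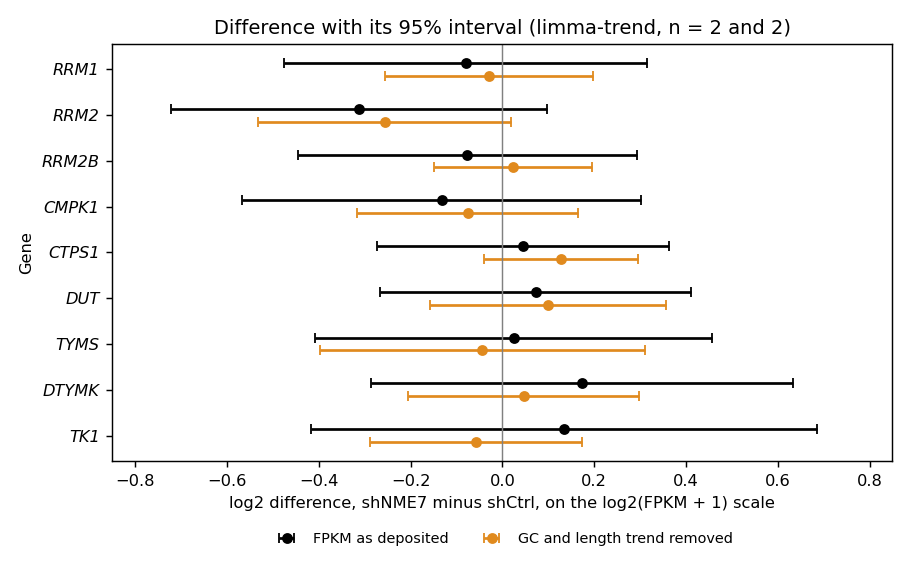
The log2 difference of each gene (shNME7 minus shCtrl, log2(FPKM + 1) scale) with its 95% interval from limma-trend, for FPKM as deposited (black) and with each library's trend on GC content and exon length removed (orange). Every interval includes 0, and RRM2 lies furthest from it, at -0.31 and -0.26.

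For most of the 9 genes the libraries of a group differed from each other more than the group means did. The gap between libraries exceeded the difference between the groups for 7 of 9 genes in shNME7 and for 7 in shCtrl. For each of the 9 genes this held in at least 1 group. A gap between single libraries varies more than a difference of means, and the share over tested genes was not taken. Counting error was small beside these gaps, since the lowest member count was 734 fragments, with a counting error of 3.69%. The gaps followed the GC content of the transcripts and ran opposite ways in the groups. TK1, with 61.7% GC, was higher in shNME7 2 than in shNME7 1 by 0.45 (log2) and lower in shCtrl 2 than in shCtrl 1, by -0.48. CMPK1, with 41.6% GC, showed the reverse, at -0.42 in shNME7 and 0.12 in shCtrl. Of the 9 genes, 8 had gaps of opposite sign in the groups, as had 71.8% of tested genes, the exception being DUT. Across the 9 genes Spearman's rho of GC content with the gap was 0.85 in shNME7 and -0.70 in shCtrl, beside 0.66 and -0.64 across 12857 tested genes. These are descriptions across genes that share the same libraries.

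**Figure D3:**
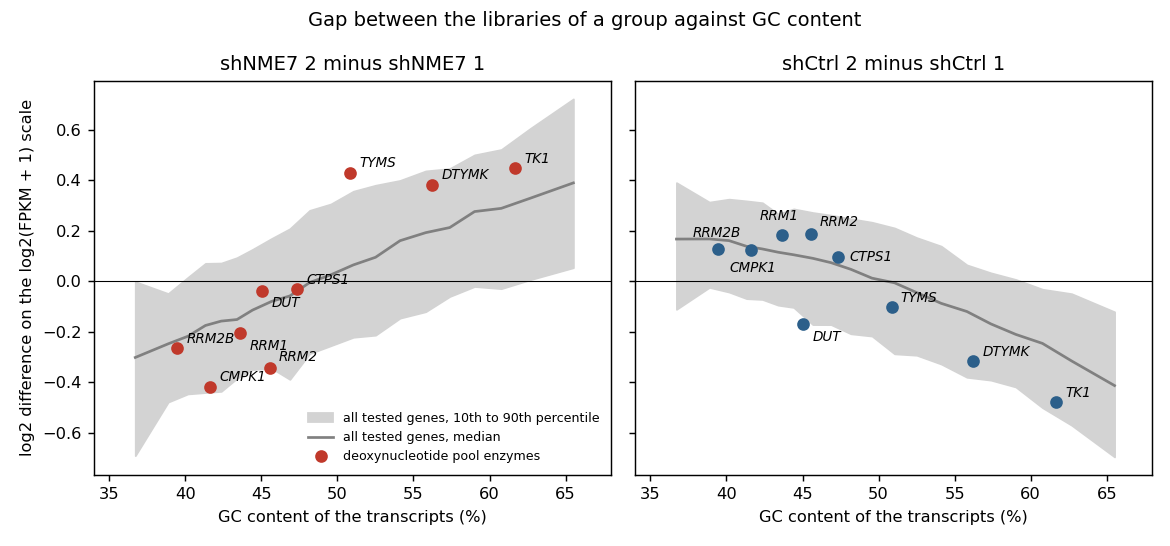
Log2 difference between the libraries of a group, replicate 2 minus replicate 1, against the GC content of each gene's transcripts, for shNME7 (left) and shCtrl (right); points are the 9 genes, and the grey line and band are the median and the 10th to 90th percentile of tested genes in 20 bins. High-GC genes such as TK1 and DTYMK lie above 0 on the left and below 0 on the right, and the low-GC genes RRM2B, CMPK1 and RRM1 the other way.

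Removing from each library its trend on GC content and exon length narrowed the intervals and changed no call among the 9 genes. The RRM2 difference was then -0.26 (95% interval -0.53 to 0.02, adjusted p 0.391 in limma-trend), and its level relative to RRM1 was 0.0586 and 0.0512 in shNME7, against 0.0637 and 0.0644 in shCtrl. TK1 turned from 0.13 to -0.06, TYMS from 0.02 to -0.04 and RRM2B from -0.08 to 0.02, so no direction is given for these genes. CTPS1 then had higher values in both shNME7 libraries than in either shCtrl library, with a difference of 0.13 (95% interval -0.04 to 0.29). With RRM2 that made 1 of 9 genes separated in each direction, beside 23.7% of tested genes downward and 23.6% upward.

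The wider nucleotide genes were described from 8 lists with 57 genes, of which 53 were tested. In limma-trend 0 of the 53 were called, with 3 higher and 1 lower at an unadjusted p under 0.05. The 1 lower was NME7, the target of the hairpin, which was also the only one called in limma-voom. The mean was higher in shNME7 for 34 and lower for 19, NME7 among the latter, beside 6712 higher and 6154 lower of 12866 tested genes. In 12 the shNME7 libraries both exceeded the shCtrl libraries and in 8, NME7 included, both were lower. These counts are to be read against the 17.8% and 18.4% of tested genes given above.

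Genes for synthesis of pyrimidines from small precursors, 4 of 4 tested, had a median log2 difference within 0.01 of 0. CAD, the enzyme of the opening steps, stood at 24.6 and 30.4 FPKM in shNME7 and 31.8 and 28.3 FPKM in shCtrl. CTPS2, the second CTP synthase, stood at 8.21 and 8.39 FPKM in shNME7, both just below 8.45 and 9.24 FPKM in shCtrl, a log2 difference of -0.08. Salvage genes for pyrimidines and deoxynucleosides, 10 of 11 tested, had a median of 0.08. DGUOK, the mitochondrial deoxyguanosine kinase, stood at 23.0 and 27.7 FPKM in shNME7 and 23.2 and 20.1 FPKM in shCtrl, and UCK1, a uridine-cytidine kinase, at 14.7 and 19.8 FPKM in shNME7 and 17.7 and 13.4 FPKM in shCtrl. Both overlapped between the groups.

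Genes that hydrolyse or clean nucleotides had the highest median of the 8 lists, 0.47, with 0 called. The mean was higher in shNME7 for 6 of 6, as for 6712 of 12866 tested genes, and 4 had both libraries above (17.8% of tested genes). NUDT1, which removes oxidised purine triphosphates, stood at 10.4 and 16.6 FPKM in shNME7, against 9.25 and 5.60 FPKM in shCtrl. Its log2 difference in limma-trend was 0.78 (SE 0.28; adjusted p 0.728). NT5C, a cytosolic deoxynucleotidase gene, stood at 14.3 and 22.2 FPKM in shNME7, against 14.4 and 10.02 FPKM in shCtrl, a log2 difference of 0.53. The list had a median GC content of 58.2%, against 48.9% for tested genes, and shNME7 2 was the highest library for both genes. With the GC and length trend removed the median was 0.28, beside 0.00 for tested genes, and all 6 genes had both shNME7 libraries above, as had 23.6% of tested genes, still with 0 called.

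In the purine lists 0 genes were called. Genes of purine synthesis, 12 of 12 tested, had a median of 0.02. PRPS1, which makes the ribose phosphate donor, stood at 65.7 and 68.6 FPKM in shNME7, above 58.5 and 60.0 FPKM in shCtrl, a log2 difference of 0.18 (limma-trend, adjusted p 0.836). IMPDH1, of the guanine branch, stood at 26.9 and 38.2 FPKM in shNME7 and 28.8 and 23.5 FPKM in shCtrl. Purine salvage genes, 5 of 5 tested, had 5 higher means, beside 6712 of 12866 tested genes, and a median of 0.19. PNP, purine nucleoside phosphorylase, stood at 37.9 and 40.2 FPKM in shNME7, above 31.8 and 33.3 FPKM in shCtrl, and APRT, the adenine salvage enzyme, at 32.7 and 54.0 FPKM in shNME7 and 40.2 and 27.3 FPKM in shCtrl.

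Closest to the diphosphate kinase step, 6 of 6 nucleoside monophosphate kinase genes were tested, with a median of 0.06 and 0 called. GUK1, the guanylate kinase, stood at 30.9 and 46.3 FPKM in shNME7 and 35.1 and 23.2 FPKM in shCtrl, with overlapping groups. Within the NME family itself, 6 of 9 genes were tested, NME7 included, with a median of 0.26 and 0 called in limma-trend. Both shNME7 libraries lay above in 2 genes (17.8% of tested genes) and below in 2 (18.4% of tested genes), the latter being NME7 and NME6. NME6 stood at 3.98 and 4.36 FPKM in shNME7, below 4.88 and 4.98 FPKM in shCtrl. NME1 stood at 26.5 and 34.3 FPKM in shNME7, above 21.2 and 21.1 FPKM in shCtrl. Its limma-trend log2 difference was 0.49 (SE 0.16, adjusted p 0.728). The reads of NME1 are uncertain because it overlaps the NME1-NME2 readthrough gene. NME4, the mitochondrial form, stood at 10.3 and 13.9 FPKM in shNME7, above 9.66 and 7.40 FPKM in shCtrl. Without shNME7 1, limma-trend called 7 of the wider genes other than NME7 higher (NUDT1, NT5C, NT5M, APRT, GUK1, NME1 and NME4), and without shCtrl 1 it called NUDT1. Over all tested genes these fits called 3.19% and 0.653% higher. In both of these fits a lone library stood for its group, assumed to vary like the other. In the first fit that library was shNME7 2, in which high-GC genes read higher than in shNME7 1. NME1 had 49.2% GC and the other genes named for that fit 59.0% to 64.9%, against a median of 48.9% for tested genes. With every library in and the GC and length trend removed, NUDT1, NT5C, NT5M, NME1 and NME4 had both shNME7 libraries above. So had 23.6% of tested genes, while APRT and GUK1 overlapped between the groups. Whether these calls go with GC content was not tested.

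Folate genes that feed thymidylate synthase, 4 of 4 tested, had a median of -0.08. SHMT2, the mitochondrial serine hydroxymethyltransferase, stood at 64.1 and 68.6 FPKM in shNME7, below 90.7 and 78.2 FPKM in shCtrl, a log2 difference of -0.34 (limma-trend, adjusted p 0.762).

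**Figure D4:**
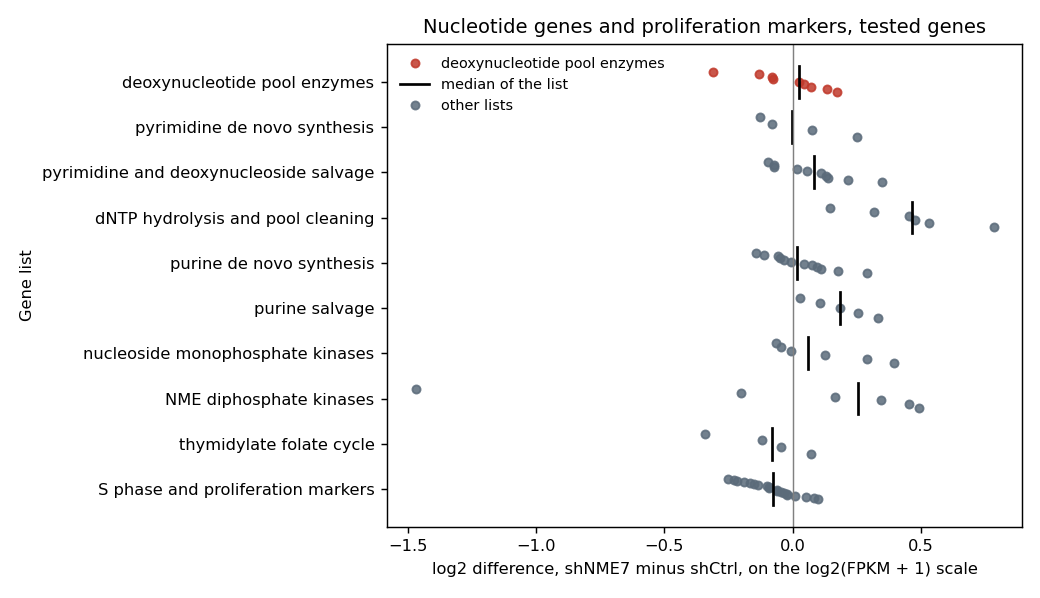
Log2 difference (shNME7 minus shCtrl, log2(FPKM + 1) scale) of each tested gene in the deoxynucleotide pool list (red) and in the other lists (grey), with the median of each list as a black bar. The 9 pool enzymes lie between -0.31 and 0.17, NME7 is the point at -1.47, and the genes for hydrolysis and cleaning have the highest median, 0.47.

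Proliferation was read from 20 S phase and cell cycle markers, since several of the 9 enzymes are made mainly in replicating cells. In limma-trend 0 of 20 were called. Means were lower in shNME7 for 16 and higher for 4, beside 6154 lower and 6712 higher of 12866 tested genes. Both shNME7 libraries lay below in 4 genes (18.4% of tested genes) and above in 2 (17.8% of tested genes), and the median was -0.08. PCNA, the replication clamp, stood at 230 and 206 FPKM in shNME7 and 222 and 219.9 FPKM in shCtrl. MKI67 stood at 17.8 and 20.6 FPKM in shNME7 and 19.3 and 26.4 FPKM in shCtrl. MCM2, of the replicative helicase, stood at 38.5 and 52.7 FPKM in shNME7 and 49.5 and 44.6 FPKM in shCtrl, and CCNE1, cyclin E1, at 1.62 and 1.89 FPKM in shNME7 and 2.22 and 1.56 FPKM in shCtrl. These 4 overlapped between the groups in FPKM as deposited. E2F1, of the factor family that binds the octamers above, stood at 19.4 and 22.8 FPKM in shNME7, below 27.6 and 23.1 FPKM in shCtrl, with a log2 difference of -0.25 (limma-trend, adjusted p 0.816). With the GC and length trend removed the median of the markers was -0.10, still with 0 called. Of the 20, 8 then had both shNME7 libraries below and 0 both above, beside 23.7% and 23.6% of tested genes. PCNA, MCM2 and E2F1 were among the 8, while MKI67 and CCNE1 still overlapped. The E2F1 difference was then -0.43 (limma-trend, adjusted p 0.199). Whether the lower level of RRM2 in both shNME7 libraries goes with the share of cells in S phase was not tested.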

How the data were processed

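RNA-seq was deposited as 1 table per library with an FPKM value for each gene, the unit being named per the file headers. The aligner HISAT2 2.0.5 and build hg18 are named per the submitters' processing notes. How fragments were counted and filtered is not given in the sources used. All 58735 gene IDs matched GENCODE release 29 (GRCh38), which gave symbols, coordinates, exon lengths and, from its transcripts, GC content. FPKM times exon length gave whole multiples of a step, within 0.01 of a whole number for 100% of values above 0, so fragments were recovered. A count of 0 allows up to 3 fragments, or 0.177 to 0.202 CPM, for counting error only.

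The main test was limma-trend (limma 3.58.1, R 4.3.3) on log2(FPKM + 1), with a pseudocount of 1, for genes with a mean of at least 1 FPKM, two-sided, with Benjamini-Hochberg adjustment over all tested genes and a threshold of 0.05. Fold changes on this scale understate those of low genes. Alternatives were a pseudocount of 0.1, no filter, a replicate block, limma-voom with trimmed-mean scaling (genes averaging 10 or more fragments), subtraction of each library's loess fit to GC content and exon length (span 0.3), protein-coding genes only and each library left out. A crossed block, limma-voom with the block, and separation counts after trend removal were added after seeing the data. The tests were tested on simulated data.

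The 9 genes and all lists were chosen with earlier results of these data known. Named genes are the 9 genes, NME7, from each nucleotide list the 2 tested genes with the largest absolute difference and at least 5 FPKM in the higher group (none having passed), and PCNA, MKI67, MCM2, CCNE1 and E2F1. Some genes that this rule takes are not reported here. NT5M, NME6, RHOG, PGAP2, STIM1, overlapping genes and marker genes are named outside this rule. Promoter sequences are from RefSeq (GRCh38.p14).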

Additional observations from a re-analysis of the deposited data

How the results depend on the processing

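No deoxynucleotide pool enzyme was called in any of the 17 alternatives. RRM2 stayed lower throughout, from -0.52 to -0.14. With both shNME7 libraries below both shCtrl libraries, leaving 1 library out cannot turn its sign, so those fits add no support. With the GC and length trend removed, signs turned for RRM2B (0.02 in limma-trend, 0.03 in limma-voom), TYMS (-0.04 and -0.05) and TK1 (-0.06 and -0.10), and 1 enzyme, CTPS1, had both shNME7 libraries above. With 1 library left out, in limma-trend or limma-voom, differences ran from -0.19 to 0.02 for RRM1, -0.24 to 0.06 for RRM2B, -0.21 to 0.24 for TYMS, -0.03 to 0.37 for DTYMK, -0.03 to 0.16 for DUT, -0.36 to 0.08 for CMPK1, -0.01 to 0.09 for CTPS1 and -0.12 to 0.37 for TK1, so these signs rest on single libraries; for RRM2B, DTYMK and CMPK1 the library was shNME7 2, for DUT shCtrl 2, for CTPS1 shCtrl 1, and for RRM1, TYMS and TK1 either shNME7 2 or shCtrl 2. NME7 was called at -1.47 with the replicate block and with protein-coding genes only. In limma-voom it was called at -2.40, at -2.26 with the trend removed and at -2.39 with the block. In limma-trend it was not called with a pseudocount of 0.1 (-2.24), without a filter (-1.47), with the trend removed (-1.37) or with the crossed block (-1.47). With 1 library left out its difference ran from -1.56 to -1.38 in limma-trend and from -2.60 to -2.19 in limma-voom. Wider nucleotide genes other than NME7 called with 1 library left out numbered from 0 to 7. Over all genes, calls numbered 122 with the replicate block, 16 in limma-voom, 33 in limma-voom with the block, 1 and 13 with the trend removed in limma-trend and limma-voom, 11 with protein-coding genes only, and from 31 to 632 with 1 library left out; the cause was not tested. Same-numbered libraries deviated oppositely from their group means (r = -0.35 across 12866 genes). The gaps between libraries also followed GC content in opposite ways, so this correlation cannot tell whether the numbers pair the libraries. The crossed pairing, chosen after seeing the data, called 0 genes. Counting error from depth was at most 3.69% for the 9 enzymes.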
